A study of Canis lupus familiaris with 28 samples.

Results

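RNA of 3 canine HS cell lines (BD, OD, PJ) was compared with that of the dendritic cell strain DC3F9, gene by gene, first in each line alone and then over the genes in which the 3 lines shared a direction. These are 4 of the 28 samples of the series, chosen as the 4 columns of the table of raw counts made for cultured cells. Histiocytic sarcoma (HS) is a cancer of the macrophage and dendritic cell lineage that is common in some dog breeds. BD and OD came from tumors of Bernese Mountain Dogs (BMDs) and PJ from the tumor of a Rottweiler, and all 3 are labelled as affected by HS. The lines were grown in RPMI 1640 medium with fetal bovine serum and no named treatment. DC3F9 is labelled as an unstimulated normal cell strain of a mongrel dog, and the study's methods describe it as immature dendritic cells made from blood monocytes with GM-CSF and IL-4. Ages are not given. Each line and the strain is a single library from a single dog, so breed, donor, culture, the choice of dendritic cells as the comparator and the malignant state cannot be told apart.

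Dendritic cells take up material from their surroundings, digest it in lysosomes and show its peptides to T cells on MHC class II molecules, while MHC class I molecules show peptides made inside the cell. Monocytes that become dendritic cells in culture largely stop dividing. Cell lines from tumors divide without end, which needs the enzymes that copy DNA and the motors and checkpoints of mitosis. The comparison sets lines of the histiocytic lineage beside a normal cell of that lineage.

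Reads were counted for 32704 Ensembl gene identifiers, and a name was at hand for 1117 of them, so counts over all genes include many that cannot be named and the lists below hold only genes that can be. The named genes chosen by rank below run only from ENSCAFG00000000015 to ENSCAFG00000001569, a narrow part of the numbering. The names are therefore not a random sample of genes. Whether members of a list lie near each other in the genome was not tested. Total counts were 117985717 (BD), 131518875 (OD), 97419529 (PJ) and 82007857 (DC3F9). The 10 most abundant genes took 5.91% to 6.93% of the counts in the lines and 15.5% in DC3F9. Levels are given as CPM (counts scaled to a common effective library size), and differences as log2 CPM after a prior count of 2 was added to each library. Values given as counts are raw and not scaled for the total, which was lowest in DC3F9. One library per line leaves no replicate check for a single line. CD1, CD11c and CD86, which usually define dendritic cells, have no name in the sources used here, so the label of DC3F9 was read against MHC class II and phagocyte genes only.

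The 3 lines were more like each other than like DC3F9. Across the 18121 genes that passed the filter on low counts, Spearman's rank correlation was 0.913 between BD and OD, 0.913 between BD and PJ and 0.937 between OD and PJ, and 0.862, 0.871 and 0.873 between these lines and DC3F9 (across genes, which are not independent replicates). Between 20.3% and 25.1% of genes lay more than 1.5 log2 CPM apart between pairs of lines, and 34.6% to 35.9% between a line and DC3F9. This cutoff of 1.5, a 2.83-fold difference, is the one the study used.

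Line by line, BD lay above DC3F9 by more than the cutoff in 3289 genes (18.2%) and below it in 3125 (17.2%). OD lay above in 3623 genes (20.0%) and below in 2877 (15.9%). PJ lay above in 3438 (19.0%) and below in 2835 (15.6%). In 1677 genes (9.25%) all 3 lines were past the cutoff above DC3F9 and in 1413 genes (7.8%) all 3 were past it below. The 3 differences share the DC3F9 library, so an unusual value there moves all of them together. Scaled by library size alone, in place of trimmed mean of M-values (TMM) factors, the split became 2217 above and 1019 below, 68.5% above in place of 54.3%, as the median difference over all genes moved to 0.54.

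With the 3 lines treated as replicates of 1 group, edgeR's quasi-likelihood test called 0 of the 18121 genes at an adjusted p under 0.05 (0.0% called). The smallest adjusted p was 0.0539, and 2788 genes (15.4%) had an unadjusted p under 0.05. DESeq2 called 1046 genes higher (5.77%) and 750 lower (4.14%), 931 of them among the 1677 and 706 among the 1413. An exact permutation test of 3 lines against 1 strain cannot go below p = 0.25. The genes below are therefore described by their values, and no direction is called by the main test.

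Of the 929 named genes that passed the filter, 71 were past the cutoff above DC3F9 in all 3 lines and 71 were past it below. Over all 18121 genes these counts were 1677 (9.25%) and 1413 (7.8%). Whether the even split of the named genes differs from that of all genes was not tested. The 12 named genes with the largest difference in their nearest line, on each side, were taken at 3 log2 CPM or more on the higher side. Of the 12 on the upper side, *RECQL4* and *DSCC1* are on the replication list and *KIF20A*, *CENPM*, *GTSE1*, *LMNB1*, *FBXO5* and *MTFR2* on the mitosis list, both described later. These lists hold 23 and 22 of the 929 named genes. They were drawn up with earlier results of these data known, and their share of the 12 was not tested. The largest difference was in *SERPINB2*, which encodes plasminogen activator inhibitor 2, a protease inhibitor that monocytes make on activation. Its level was 449 CPM (BD), 549 (OD) and 789 (PJ) against 1.48 in DC3F9. All 3 lines lay far above the strain, 304-fold (BD), 372-fold (OD) and 533-fold (PJ). For this gene edgeR gave log2FC 8.65 and adjusted p = 0.0918, with an SE of 0.77 derived from its test statistic, as for each SE below.

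*PTCH1*, the Hedgehog receptor that is itself switched on by the pathway, stood at 0.778 CPM in DC3F9 and 27.4 (BD), 25.8 (OD) and 26.3 (PJ) in the lines. The lines were nearly level with each other (SD 0.04 log2 CPM, n = 3) and 33.2- to 35.3-fold above DC3F9. *GLI1*, a transcription factor and target of the same pathway, differed by 0.80 (BD), 0.95 (OD) and 1.47 (PJ) log2 CPM, which is under the cutoff in each line, and *SMO*, the membrane protein that passes the signal on, had 0 counts in the lines and 6 in DC3F9. *FZD6*, a Frizzled receptor for Wnt ligands, stood at 103 CPM (BD), 107 (OD) and 123 (PJ) against 8.75 in DC3F9, and *SRGAP1*, which acts below Slit and Robo, at 0.763 CPM in DC3F9 and 11.7 (BD), 12.5 (OD) and 23.2 (PJ) in the lines. *MTFR2*, a regulator of mitochondrial fission, stood at 50.6 CPM (BD), 56.3 (OD) and 42.9 (PJ) against 2.46 in DC3F9, so that the lines lay 17.5- to 22.9-fold above.

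On the lower side, *TGFBI* encodes a secreted matrix protein induced by TGF-beta and abundant in macrophages. It stood at 935 CPM in DC3F9 and 0.718 (BD), 0.924 (OD) and 1.39 (PJ) in the lines. All 3 lines were near the bottom of the range while DC3F9 was near the top, 674- to 1302-fold apart, and edgeR gave log2FC -9.85, SE 0.53 and adjusted p = 0.0539, the smallest adjusted p of any gene, which 4 genes share. *FBP1*, the fructose bisphosphatase of gluconeogenesis that monocytes also carry, had 1 count (BD), 15 (OD) and 0 (PJ) against 3470 in DC3F9. With a floor of 3 counts in PJ, the DC3F9 level was at least 1907-fold higher than there, and it was 506-fold higher than in OD. *LGALS1*, the sugar-binding galectin-1, stood at 1260.1 CPM in DC3F9 and 196 (BD), 103 (OD) and 148 (PJ) in the lines. Its difference was modest beside these, 6.42- to 12.2-fold, and alike in all 3 lines.

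Of the other lower genes, *SLC27A6*, a fatty acid transport protein, stood at 158 CPM (BD), 9.67 (OD) and 36.2 (PJ) against 2628 in DC3F9. Its lines spread over 16.6- to 272-fold below the strain. *GFPT2*, an enzyme of the hexosamine pathway, stood at 14.01 CPM in DC3F9 and 0.348 (BD), 0.235 (OD) and 0.746 (PJ) in the lines, and *SLC25A48*, a mitochondrial carrier, at 0.726 CPM (BD), 0.462 (OD) and 0.321 (PJ) against 9.48 in DC3F9. *TRPC7*, a cation channel, stood at 78.8 CPM in DC3F9 and 11.5 (BD), 0.341 (OD) and 10.5 (PJ) in the lines, with OD far under both other lines. *MFNG*, a sugar transferase that modifies Notch, had 6 counts (BD), 68 (OD) and 7 (PJ) against 570 in DC3F9, again with 1 line, here OD, apart from the others though still below DC3F9. *HLA-DQB2*, *HLA-C*, *PARVG* and *CPM* complete the 12 and are described with their groups.

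**Figure D1:**
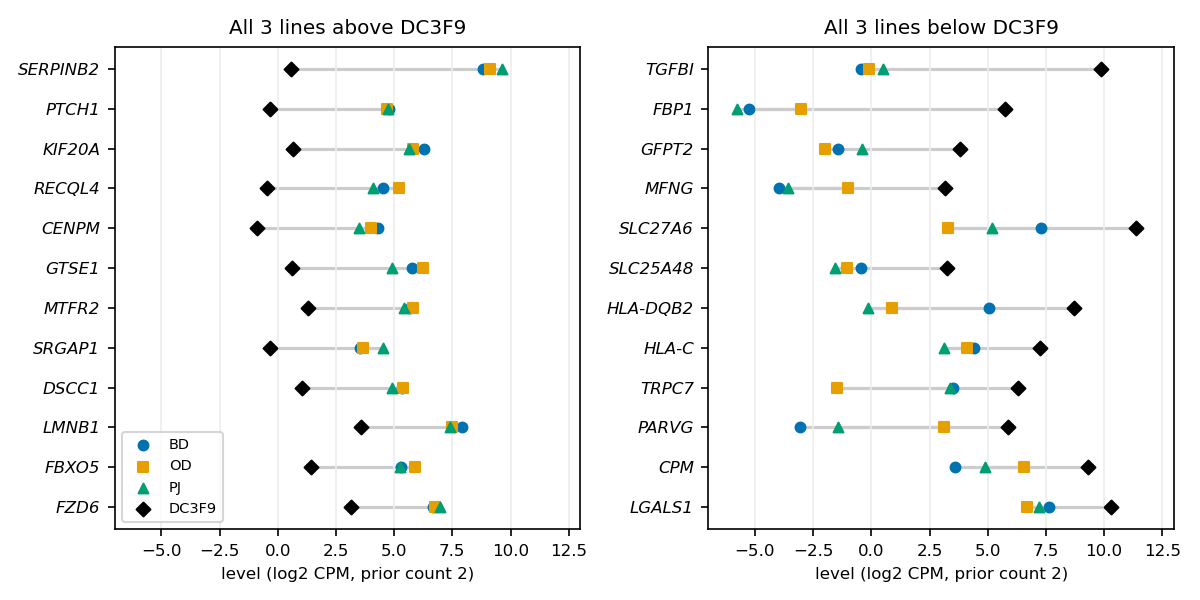
Levels of the 12 named genes highest above and the 12 lowest below DC3F9 in all 3 lines, in log2 CPM with a prior count of 2, with 1 point per library (circle BD, square OD, triangle PJ, diamond DC3F9). The 3 lines cluster for *PTCH1*, *LMNB1* and *FZD6* and spread over several log2 units for *SLC27A6*, *HLA-DQB2*, *TRPC7* and *PARVG*, and the grey bar joins the lowest to the highest library.

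The largest differences shared by all 3 lines belong to genes with no name in the sources used here. ENSCAFG00000002987 had 0 counts in DC3F9 and 7566 (BD), 6284 (OD) and 2173 (PJ) in the lines, at least 439-fold to at least 1252-fold higher in the lines against a floor of 3 counts in DC3F9. ENSCAFG00000032695 had 13958 counts (BD), 9423 (OD) and 20309 (PJ) against 4 in DC3F9. In the other direction, ENSCAFG00000024995 had 13937 counts in DC3F9 and 1 (BD), 3 (OD) and 4 (PJ) in the lines, and ENSCAFG00000012206 had 2 counts (BD), 9 (OD) and 1 (PJ) against 8592 in DC3F9. Each was close to absent on 1 side and abundant on the other.

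Of 8 listed MHC class II genes 7 passed the filter, and 6 of these had lower values in every line than in DC3F9 (30.2% of all genes did). In 4 of them all 3 lines were past the cutoff (7.8% of all genes), by an amount that differed from line to line. *DLA-DRA*, the shared alpha chain of DR, stood at 2017 CPM in DC3F9 and 361 (BD), 30.8 (OD) and 5.01 (PJ) in the lines. *HLA-DRB1*, its beta chain, stood at 323 CPM (BD), 26.7 (OD) and 7.49 (PJ) against 1560.4 in DC3F9, and the alpha chain gene *DLA-DQA1* at 1419 CPM in DC3F9 and 325 (BD), 15.8 (OD) and 3.07 (PJ) in the lines. The order was the same for these genes: DC3F9 was highest, then BD, then OD, and PJ was lowest.

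The distance below DC3F9 for *DLA-DRA* was 5.59-fold in BD, 65.4-fold in OD and 402-fold in PJ. For *HLA-DQB2*, a beta chain of DQ, the level was 33.2 CPM (BD), 1.83 (OD) and 0.888 (PJ) against 418 in DC3F9. Summed over the list, class II genes took 1102 CPM (BD), 79.8 (OD), 19.5 (PJ) and 5499 (DC3F9). In bulk RNA, fewer cells that carry class II and less class II RNA per cell cannot be told apart. The 3 lines spread over an SD of 3.09 log2 CPM for *DLA-DRA*, for which edgeR gave log2FC -3.93, SE 1.92 and adjusted p = 0.411, and DESeq2 called 0 members of the list. Near-identical chains of this family may share reads, so the values of single genes are less certain than the order of the libraries.

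The helpers of class II loading did not follow one pattern. *DLA-DMA*, which exchanges peptides on class II, stood at 83.6 CPM in DC3F9 and 59.3 (BD), 3.72 (OD) and 2.51 (PJ) in the lines, so that BD was within 0.5 log2 CPM of the strain while OD and PJ lay 22.4- and 33.3-fold below it. *DLA-DOB*, a partner that restrains DM, had 34 counts (BD), 17 (OD) and 2 (PJ) against 25 in DC3F9. Scaled, BD stood at 0.263 CPM against 0.389 in DC3F9, so it too lay below the strain. *DLA-DOA*, the other chain of that partner, had 1 count in DC3F9 and 27 (BD), 107 (OD) and 56 (PJ) in the lines, and was the only member above DC3F9 in all 3 lines. It passed the filter on counts in the lines alone, so its direction was fixed by the filter. *HLA-DPB1* had 1 count (BD), 6 (OD) and 0 (PJ) against 4 in DC3F9 and did not pass the filter.

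The MHC class I list held 7 genes, which all passed the filter, and 6 had lower values in every line than in DC3F9 (30.2% of all genes did). In 3 of them all 3 lines were past the cutoff (7.8% of all genes), and these 3 are the heavy chain genes, *DLA88*, *DLA-64* and *HLA-C* (the last named after its human homolog). *DLA88* stood at 779 CPM in DC3F9 and 168 (BD), 113 (OD) and 36.2 (PJ) in the lines, and *DLA-64* at 189 CPM (BD), 287 (OD) and 80.2 (PJ) against 1328 in DC3F9. *HLA-C* stood at 153 CPM in DC3F9 and 21.1 (BD), 17.1 (OD) and 8.58 (PJ) in the lines. Each was lowest in PJ, 21.5-fold, 16.6-fold and 17.8-fold below DC3F9. DESeq2 called these 3 genes lower (4.14% of all genes were), while edgeR's adjusted p lay between 0.113 and 0.22.

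The transporter and chaperone of peptide loading differed less. *TAP1* and *TAP2*, the pair that carries peptides into the endoplasmic reticulum, differed from DC3F9 by -0.36 (BD), -0.27 (OD) and -1.02 (PJ) log2 CPM and by 0.03 (BD), -0.18 (OD) and -1.10 (PJ). *TAPBP*, the tapasin that links them to class I, differed by -0.79 (BD), -0.27 (OD) and -1.26 (PJ). None of these values reached the cutoff. *PSMB8*, a subunit of the immunoproteasome that interferon induces, stood at 26.8 CPM (BD), 1.06 (OD) and 1.51 (PJ) against 66.97 in DC3F9, with OD and PJ 63.2- and 44.3-fold below and BD 2.50-fold below. The transcription factors *STAT2* and *IRF1*, which carry interferon signals, differed by -1.68 (BD), -1.02 (OD) and -1.52 (PJ) and -1.40 (BD), -1.91 (OD) and -1.38 (PJ) log2 CPM.

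**Figure D2:**
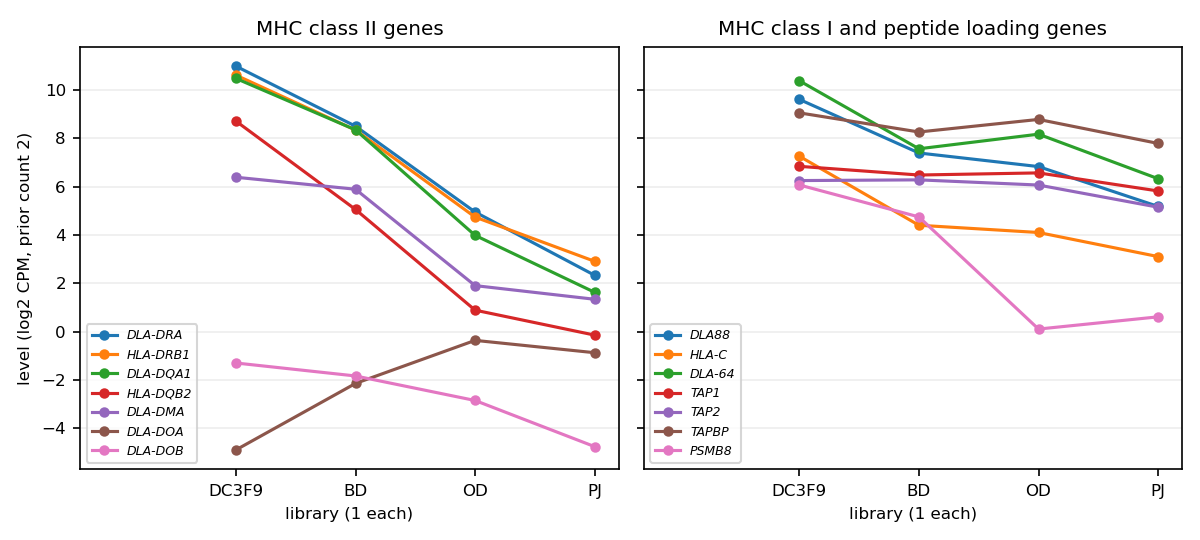
Levels in log2 CPM with a prior count of 2 for the MHC class II list (left, 7 genes) and the class I and peptide loading list (right, 7 genes), with 1 point per library and lines joining the points of a gene. From DC3F9 through BD and OD to PJ the 4 most abundant class II genes step down in the same order, while *TAP1*, *TAP2* and *TAPBP* stay within 1.26 log2 CPM of DC3F9.

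The leukocyte and phagocyte list held 26 genes, all past the filter. Lower values than in DC3F9 in every line were found for 17 of them (30.2% of all genes) and higher values in every line for 5 (33.2%). All 3 lines were past the cutoff below in 8 (7.8% of all genes) and above in 3 (9.25%), and the median difference was -0.94, against 0.08 over all genes. Of the members not past the cutoff in all 3 lines, *LYZ*, the lysozyme of macrophages, stood at 591 CPM in DC3F9 and 475 (BD), 571 (OD) and 138 (PJ) in the lines. *NCF4* and *RAC2*, parts of the phagocyte oxidase, differed by -0.17 (BD), 0.46 (OD) and 0.65 (PJ) and by -0.78 (BD), -0.21 (OD) and -0.91 (PJ) log2 CPM. *CSF2RB*, the shared receptor chain for GM-CSF, stood at 85.2 CPM (BD), 226 (OD) and 137 (PJ) against 273 in DC3F9. These 4 genes were detected in every library, with *LYZ* in PJ and *CSF2RB* in BD past the cutoff below DC3F9.

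The 8 lower genes were *TGFBI*, *FBP1*, *PARVG*, *CPM*, *LTC4S*, *DCSTAMP*, *NFAM1* and *GPSM3*. *CPM*, carboxypeptidase M, a surface enzyme of maturing macrophages, stood at 629 CPM in DC3F9 and 12.1 (BD), 94.9 (OD) and 29.5 (PJ) in the lines. *DCSTAMP*, a membrane protein of dendritic cells needed for cell fusion, stood at 11.2 CPM (BD), 5.80 (OD) and 52.6 (PJ) against 211 in DC3F9. Of the lines, PJ was nearest to DC3F9 for *DCSTAMP* and OD for *CPM*. *PARVG*, an integrin adaptor of blood cells, stood at 58.9 CPM in DC3F9 and 0.100 (BD), 8.76 (OD) and 0.349 (PJ) in the lines, with OD only 6.72-fold below the strain. *LTC4S*, which makes leukotriene C4, had 12 counts (BD), 16 (OD) and 10 (PJ) against 139 in DC3F9. *NFAM1*, an immune receptor that signals through an ITAM, stood at 159.7 CPM in DC3F9 and 20.4 (BD), 48.9 (OD) and 6.81 (PJ) in the lines, and *GPSM3*, a G protein regulator of leukocytes, at 11.1 CPM (BD), 12.2 (OD) and 17.3 (PJ) against 49.5 in DC3F9. Above DC3F9 in all 3 lines, besides *SERPINB2*, were *SLA*, an adaptor that dampens receptor signals, at 11.1 CPM in DC3F9 and 42.4 (BD), 52.9 (OD) and 57.4 (PJ) in the lines, and *TSPAN33*, a tetraspanin, with 67 counts (BD), 150 (OD) and 148 (PJ) against 6 in DC3F9. *TSPAN33* passed the filter on counts in the lines alone, so its direction was fixed by the filter.

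Among 27 cytokine and signalling genes, of which 21 passed the filter, 6 had higher values in every line than in DC3F9 (33.2% of all genes did) and 8 had lower values (30.2%). *TNF* alone was past the cutoff above DC3F9 in all 3 lines (9.25% of all genes were). This inflammatory cytokine stood at 4.34 CPM in DC3F9 and 74.9 (BD), 99.1 (OD) and 24.2 (PJ) in the lines, 17.3-fold (BD), 22.8-fold (OD) and 5.57-fold (PJ) above, and edgeR gave log2FC 3.93, SE 1.08 and adjusted p = 0.221. *IFNG* and *IL2RB* were past the cutoff below in all 3 lines (7.8% of all genes were). *IFNG*, the interferon of T and NK cells, had 0 counts (BD), 0 (OD) and 1 (PJ) against 45 in DC3F9, and *IL2RB*, a receptor chain for IL-2 and IL-15, had 401 counts in DC3F9 and 0 (BD), 23 (OD) and 5 (PJ) in the lines. *CSF2*, the gene of GM-CSF itself, had 298 counts (BD), 3 (OD) and 93 (PJ) against 33 in DC3F9, so BD lay above the strain and OD below. *IL3* and *IL4* had 0 counts in all 4 libraries. The median over the list was -0.20.

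*IFNG* and *IL2RB* also belong to the list of T and NK cell genes. Of its 8 members 4 passed the filter, and all 4 had lower values in every line than in DC3F9 (30.2% of all genes did). *IFNG* passed on its DC3F9 counts alone, so its direction was fixed by the filter. The summed level was 39.3 CPM in DC3F9 and 1.62 (BD), 14.8 (OD) and 18.4 (PJ) in the lines. *GRAP2*, an adaptor that myeloid cells and platelets also carry, made up most of this sum. *CD226*, an adhesion receptor of these cells, had 101 counts in DC3F9 and 51 (BD), 79 (OD) and 24 (PJ) in the lines. The T cell genes *THEMIS* and *TCF7* had 1 count each in DC3F9, *SAMD3* had 4 and *IL22* had 1. The part of T or NK cells in the level of DC3F9 was not tested.

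Of 15 listed lysosomal genes 13 passed the filter, and 12 had lower values than DC3F9 in every line (30.2% of all genes did). In 3 of them all 3 lines were past the cutoff (7.8% of all genes). Among these *CD63*, a membrane protein of late endosomes, stood at 350.2 CPM (BD), 306 (OD) and 339.6 (PJ) against 1195 in DC3F9. For *CD63* the lines lay 3.41- to 3.90-fold below, with an SD between lines of 0.10 log2 CPM (n = 3). *SMPDL3A*, a phosphodiesterase of macrophages, stood at 2534 CPM in DC3F9 and 1229 (BD), 614 (OD) and 989 (PJ) in the lines, and *NEU1*, the lysosomal sialidase, at 112 CPM (BD), 58.5 (OD) and 104 (PJ) against 228 in DC3F9, both past the cutoff in OD only. *LYZ* also stands in this list. Scaled by library size alone, 1 member in place of 3 passed the cutoff in all lines.

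Of the 23 listed genes that copy and repair DNA, all of which passed the filter, 7 were past the cutoff above DC3F9 in all 3 lines (9.25% of all genes were) and 0 were past it below (7.8%), with a median difference of 0.63. *CDK2*, the kinase that starts S phase, stood at 3.13 CPM in DC3F9 and 29.3 (BD), 37.6 (OD) and 30.9 (PJ) in the lines. *RECQL4*, a helicase of replication origins, stood at 22.8 CPM (BD), 36.6 (OD) and 16.8 (PJ) against 0.700 in DC3F9, and *DSCC1*, a part of a clamp loader needed for sister chromatid cohesion, at 2.05 CPM in DC3F9 and 40.5 (BD), 41.6 (OD) and 29.96 (PJ) in the lines. The lines lay 9.38- to 12.03-fold above the strain for *CDK2*, 23.97- to 52.3-fold for *RECQL4* and 14.6- to 20.3-fold for *DSCC1*.

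*PRIM1*, the primase subunit that lays down primers (named after its human homolog), stood at 38.4 CPM (BD), 28.8 (OD) and 34.5 (PJ) against 5.66 in DC3F9. *ATAD2*, a bromodomain protein of newly made chromatin, stood at 66.2 CPM in DC3F9 and 438 (BD), 303 (OD) and 338 (PJ) in the lines. *TCF19*, a gene of late G1, stood at 20.00 CPM (BD), 17.2 (OD) and 25.2 (PJ) against 2.60 in DC3F9, and *FANCC*, of the Fanconi anemia core complex, at 1.67 CPM in DC3F9 and 6.70 (BD), 7.76 (OD) and 8.61 (PJ) in the lines. The lines agreed closely within each of these, with SDs between 0.18 and 0.28 log2 CPM. *CDK4*, which drives G1, differed by 1.00 (BD), 1.24 (OD) and 1.04 (PJ) log2 CPM, under the cutoff in each line, and was added here after its values were seen. *RRM2B*, a p53-induced subunit of ribonucleotide reductase used outside S phase, stood at 1.84 CPM (BD), 24.5 (OD) and 4.78 (PJ) against 38.3 in DC3F9, with BD and PJ past the cutoff below DC3F9.

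The mitosis list held 22 genes, all past the filter, of which 9 were past the cutoff above DC3F9 in all 3 lines (9.25% of all genes were) and 0 were past it below (7.8%), with a median difference of 1.49. *KIF20A*, a kinesin of cytokinesis, stood at 1.57 CPM in DC3F9 and 78.3 (BD), 55.4 (OD) and 49.9 (PJ) in the lines. The lines lay 31.8- to 49.8-fold above the strain, and edgeR gave log2FC 5.28, SE 0.65 and adjusted p = 0.0918. *CENPM*, a centromere protein, stood at 19.9 CPM (BD), 15.9 (OD) and 11.1 (PJ) against 0.514 in DC3F9. *GTSE1*, a microtubule-binding protein of G2 that restrains p53, stood at 1.49 CPM in DC3F9 and 55.1 (BD), 75.7 (OD) and 30.1 (PJ) in the lines, and *FBXO5*, the inhibitor of the anaphase-promoting complex, at 38.8 CPM (BD), 58.9 (OD) and 37.9 (PJ) against 2.69 in DC3F9. Each of these was at a low level in DC3F9, between 0.514 and 2.69 CPM.

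*LMNB1*, lamin B1 of the nuclear envelope, stood at 11.8 CPM in DC3F9 and 245 (BD), 182 (OD) and 167 (PJ) in the lines, and *KIFC1*, a minus-end kinesin that gathers spindle poles, at 143 CPM (BD), 139 (OD) and 126 (PJ) against 12.3 in DC3F9. For *KIFC1* the 3 lines were within 0.10 log2 CPM (SD, n = 3) and 10.3- to 11.7-fold above DC3F9. *RTTN* and *NUP43*, of centrioles and nuclear pores, lay 1.87 (BD), 1.75 (OD) and 1.95 (PJ) and 1.78 (BD), 1.74 (OD) and 1.87 (PJ) log2 CPM above. The ninth is *MTFR2*, described above as a regulator of mitochondrial fission, which the counts for this list include. *RAD21*, a cohesin subunit, and *CDC25C*, the phosphatase that opens mitosis, were past the cutoff in BD (2.10 and 1.90 log2 CPM) and under it in OD. *CDC14B*, a phosphatase, differed by -1.43 (BD), -1.31 (OD) and -1.22 (PJ) log2 CPM and was the only member with lower values in all 3 lines. DESeq2 called 9 members of this list and 7 of the replication list, where it called 5.77% of all genes higher and 4.14% lower.

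**Figure D3:**
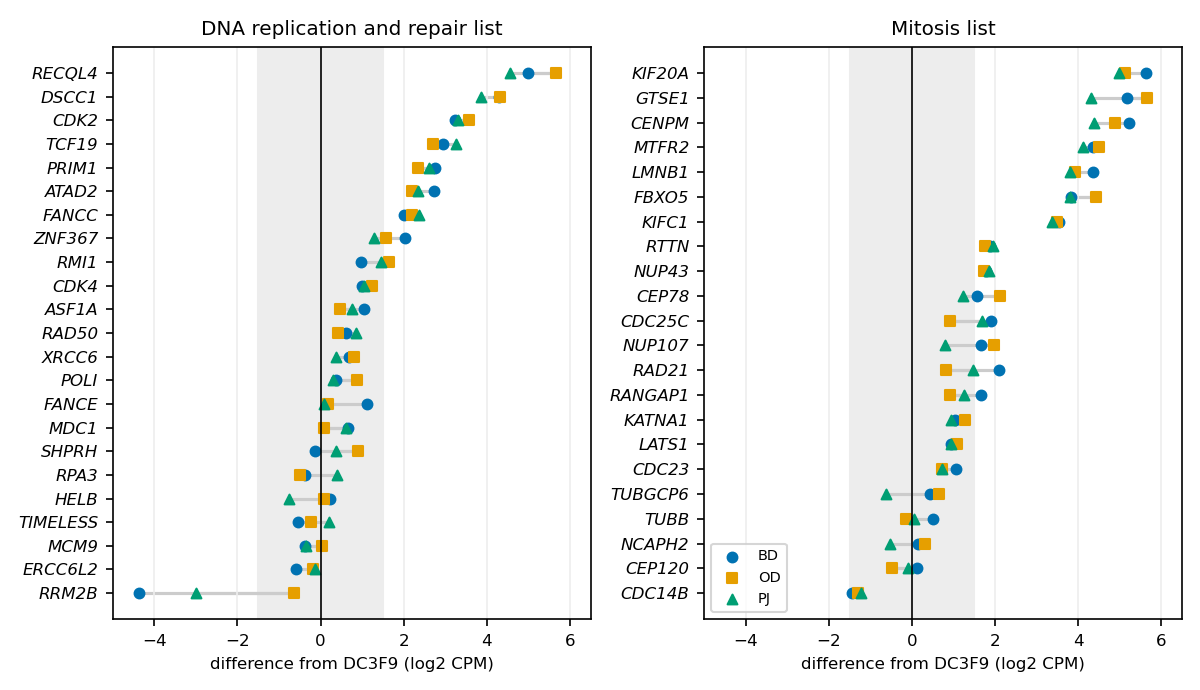
Difference of each line from DC3F9 in log2 CPM for the 23 genes of the DNA replication and repair list (left) and the 22 of the mitosis list (right), ordered by their mean over lines, with the span under the cutoff of 1.5 in grey. In each list the 7 genes at the top lie beyond 2 log2 CPM in nearly every line, and the lower part of both lists lies within the grey span, *RRM2B* in BD and PJ being apart on the other side.

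Of 26 listed growth control genes 23 passed the filter, 3 were past the cutoff above DC3F9 in all 3 lines and 2 were past it below, shares near those of all genes (9.25% and 7.8%). Beside *PTCH1*, the 2 others above were *EGR1*, an immediate early gene induced by growth factors and the MAPK pathway, at 33.9 CPM in DC3F9 and 197 (BD), 372 (OD) and 233 (PJ) in the lines, and *SGK1*, a kinase downstream of PI3K, at 81.6 CPM (BD), 95.5 (OD) and 93.4 (PJ) against 17.9 in DC3F9. *MYC*, added after its values were seen, stood at 43.4 CPM in DC3F9 and 183 (BD), 118 (OD) and 171 (PJ) in the lines, past the cutoff in BD and PJ and just under it in OD (1.45 log2 CPM). *PIM1*, a survival kinase, lay below at 12.2 CPM (BD), 4.85 (OD) and 7.65 (PJ) against 35.5 in DC3F9, and *ESR1*, the estrogen receptor gene, had 76 counts in DC3F9 and 5 (BD), 3 (OD) and 16 (PJ) in the lines. *MDM2*, which marks p53 for destruction and is itself a p53 target, stood at 95.7 CPM (BD), 182 (OD) and 69.8 (PJ) against 493 in DC3F9. By library size alone 5 members were above in all lines and 1 was below.

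Of 14 genes for amino acid synthesis, one-carbon metabolism and tRNA charging, 4 were past the cutoff above DC3F9 in all 3 lines (9.25% of all genes were) and 0 were past it below (7.8%), with a median difference of 1.15. *SHMT2*, which makes glycine and one-carbon units from serine in mitochondria, stood at 98.8 CPM in DC3F9 and 308 (BD), 304 (OD) and 361 (PJ) in the lines. *MTHFD1L*, which passes these units on as formate, stood at 239.9 CPM (BD), 187 (OD) and 274 (PJ) against 65.2 in DC3F9. The lines lay 3.08- to 3.65-fold above the strain for *SHMT2* and 2.87- to 4.20-fold for *MTHFD1L*. *GCAT*, of threonine breakdown, stood at 4.53 CPM in DC3F9 and 43.04 (BD), 38.9 (OD) and 16.2 (PJ) in the lines, and *GLDC*, of glycine cleavage, had 46 counts (BD), 474 (OD) and 129 (PJ) against 2 in DC3F9. *GLDC* passed the filter on counts in the lines alone, so its direction was fixed by the filter. *PSAT1*, of serine synthesis, stood at 44.1 CPM in DC3F9 and 331 (BD), 130.1 (OD) and 118 (PJ) in the lines, with PJ just under the cutoff at 1.42 log2 CPM.

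Sterol and lipid genes had a median difference of -0.14 over 16 members, all past the filter. *CERK*, the ceramide kinase, stood at 7.33 CPM (BD), 74.3 (OD) and 6.28 (PJ) against 248 in DC3F9. *AGPAT1*, of phospholipid synthesis, stood at 32.8 CPM in DC3F9 and 9.37 (BD), 6.42 (OD) and 8.39 (PJ) in the lines, and *PPARA*, a fatty acid sensing receptor, had 16 counts (BD), 4 (OD) and 8 (PJ) against 39 in DC3F9. These 3 were past the cutoff below DC3F9 in all 3 lines (7.8% of all genes were), and *ACSL6*, which activates fatty acids, had 0 counts in DC3F9 and 21 (BD), 9 (OD) and 30 (PJ) in the lines and was past it above (9.25%). *ACSL6* passed the filter on counts in lines alone, so its direction was fixed by the filter. *SQLE*, the squalene epoxidase of cholesterol synthesis, stood at 390.1 CPM (BD), 329 (OD) and 97.1 (PJ) against 111 in DC3F9, so that BD and OD were past the cutoff above and PJ was level with the strain.

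Of 17 extracellular matrix and fibroblast genes, many of them at low counts, 13 passed the filter, 3 were past the cutoff above DC3F9 in all 3 lines (9.25% of all genes were) and 4 were past it below (7.8%). *COL14A1*, a fibril-associated collagen, had 1 count in DC3F9 and 180 (BD), 1860 (OD) and 678 (PJ) in the lines, so that it was close to absent only in DC3F9. *THBS2*, a matrix glycoprotein, had 173 counts (BD), 77 (OD) and 20 (PJ) against 0 in DC3F9, and *LAMA2*, a laminin chain, had 0 counts in DC3F9 and 114 (BD), 12 (OD) and 13 (PJ) in the lines. *ADAMTS2*, which trims procollagen, lay the other way with 0 counts (BD), 24 (OD) and 10 (PJ) against 259 in DC3F9, and so did *FBLN1* (fibulin 1) with 114 counts in DC3F9 and 6 (BD), 9 (OD) and 0 (PJ) in the lines, *FBN2* (fibrillin 2) with 0 counts (BD), 1 (OD) and 18 (PJ) against 45 in DC3F9 and *COL23A1* with 11 counts in DC3F9 and 0 (BD), 4 (OD) and 1 (PJ) in the lines. *FBLN1* and *COL23A1* passed the filter on their DC3F9 counts alone, and *COL14A1*, *THBS2* and *LAMA2* on counts in the lines alone. The filter thus fixed the direction of these members, and the counts past the cutoff say little about the list. The fibroblast markers *CTHRC1* and *TCF21* had 0 counts in DC3F9 and at most 4 in a line, and the summed level of the list was 9.75 to 73.8 CPM in the lines and 10.97 in DC3F9.

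Lists for other cell types were short after the filter, with 4 of 5 endothelial, 4 of 7 epithelial and 3 of 7 melanocyte and glial genes kept. They showed 0 genes past the cutoff in all 3 lines, where 9.25% of all genes were past it above and 7.8% below. Lists of this size cannot tell 0 from those shares. Endothelial genes summed to 5.91 to 29.2 CPM in the lines and 14.9 in DC3F9, with *MYCT1* at 0 counts in all 4 libraries. Epithelial genes summed to 0.834 to 4.27 and 2.15 CPM, with *SPDEF* at 0 in DC3F9 and BD. Melanocyte and glial genes summed to 21.05 to 28.97 and 38.7 CPM, most of it from *MBP*, which blood cells also express, with *TYRP1* at 0 counts in all 4 libraries. The ribosome and translation list had a median difference of 0.39, and 0 of its 11 members passed the cutoff in any line.

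**Figure D4:**
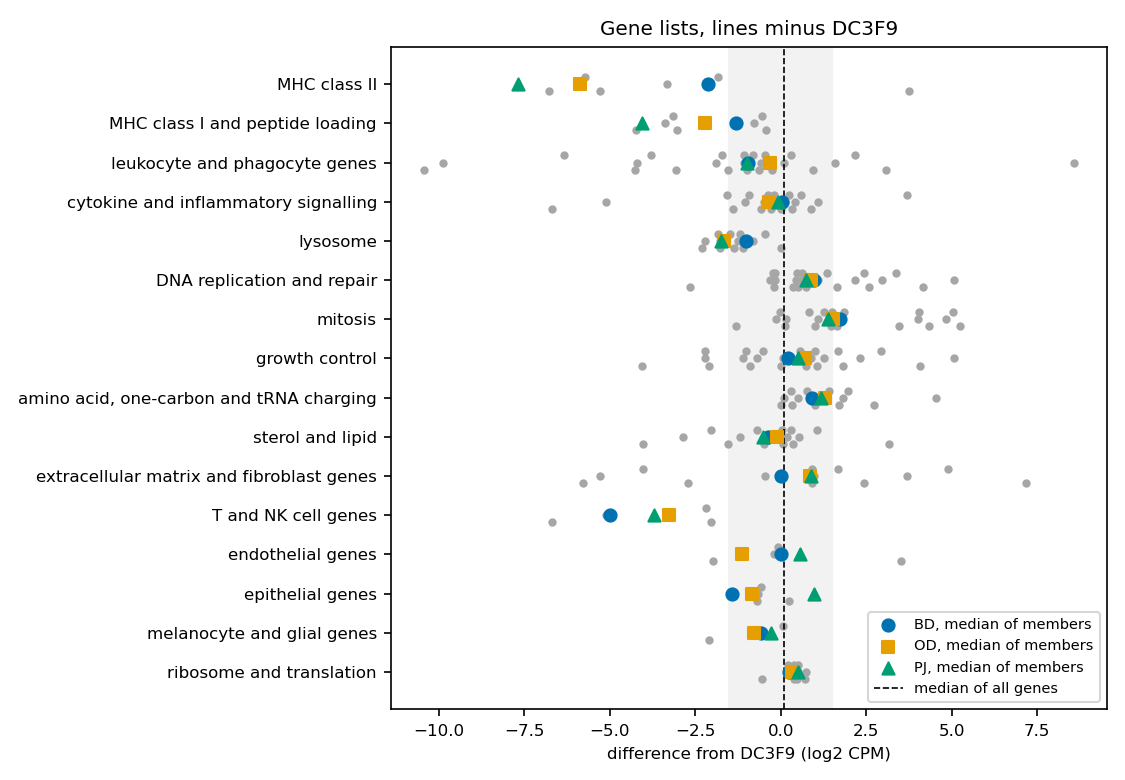
Difference from DC3F9 in log2 CPM for the members of each list (grey points, the mean over the 3 lines), with the median of the members in BD, OD and PJ as coloured marks, the median of all genes as a dashed line and the span under the cutoff of 1.5 in grey. The MHC class II medians run from -2.13 in BD to -7.70 in PJ, mitosis lies to the right with 1.37 to 1.73, and ribosome genes lie within the grey span.

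The lines also differed from one another. A gene was taken to stand apart in a line where that line lay past the cutoff from DC3F9 and from both other lines, on the same side. BD stood apart above in 591 genes (3.26%) and below in 834 (4.6%). For OD these counts were 575 (3.17%) and 368 (2.03%), and for PJ 529 (2.92%) and 388 (2.14%). In 467 genes (2.58%) a pair of lines lay past the cutoff on opposite sides of DC3F9. The 4 named genes on each side with the widest gap were taken for each line.

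In BD, *RASEF*, a Rab GTPase with calcium-binding motifs, had 12789 counts (BD), 3 (OD) and 1 (PJ) against 1 in DC3F9. It was close to absent from all but this line, 6348-fold above DC3F9 with a counting interval of 1139 to 250758. *ADGRG6*, an adhesion receptor of Schwann cells, stood at 6.43 CPM in DC3F9 and 102 (BD), 2.64 (OD) and 3.64 (PJ) in the lines. *HEBP2*, a heme-binding protein, stood at 25.8 CPM (BD), 4.66 (OD) and 4.67 (PJ) against 1.39 in DC3F9, and *SLC18B1*, a vesicular polyamine transporter, at 4.06 CPM in DC3F9 and 13.7 (BD), 1.36 (OD) and 1.20 (PJ) in the lines. On the lower side of BD were *PLXNB2*, a semaphorin receptor, at 1.18 CPM (BD), 259 (OD) and 50.2 (PJ) against 62.1 in DC3F9, and *UST*, a sulfotransferase of dermatan sulfate, at 44.3 CPM in DC3F9 and 0.757 (BD), 32.1 (OD) and 14.7 (PJ) in the lines. *GRAP2* was next at 1.17 CPM (BD), 14.1 (OD) and 18.04 (PJ) against 30.6 in DC3F9, with *ITGA7*, a laminin-binding integrin chain, at 198 CPM in DC3F9 and 20.9 (BD), 99.9 (OD) and 103 (PJ) in the lines.

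In OD, *SERPINB8*, an inhibitor of serine proteases inside the cell, had 17052 counts (BD), 37 (OD) and 19621 (PJ) against 6705 in DC3F9. BD and PJ were within 0.83 log2 CPM of DC3F9 while OD lay 397-fold below it. *TRPC7*, *ATP8B1* and *DAPK1* also stood apart below. *ATP8B1*, a flippase that moves phospholipids across membranes, stood at 28.3 CPM in DC3F9 and 119 (BD), 2.45 (OD) and 58.96 (PJ) in the lines, and *DAPK1*, a death-associated kinase, at 192 CPM (BD), 35.4 (OD) and 210.5 (PJ) against 698 in DC3F9. On the upper side of OD, *PLXNB2* reached 259 CPM, *PDLIM4*, which binds actin fibers, stood at 5.56 CPM in DC3F9 and 2.24 (BD), 20.9 (OD) and 1.81 (PJ) in the lines, and the imprinted gene *MEST* had 3 counts (BD), 1967 (OD) and 254 (PJ) against 208 in DC3F9. *ENTHD1* had 41 counts in DC3F9 and 1 (BD), 1286 (OD) and 203 (PJ) in the lines.

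In PJ, *PTPRK*, a receptor phosphatase, had 113 counts (BD), 23 (OD) and 4294 (PJ) against 6 in DC3F9. *GJA1*, the gap junction protein connexin 43, had 50 counts in DC3F9 and 24 (BD), 304 (OD) and 3959 (PJ) in the lines, and *MEGF10*, an engulfment receptor, had 98 counts (BD), 30 (OD) and 1994 (PJ) against 25 in DC3F9. *CXCL14*, a chemokine of epithelia and fibroblasts, stood at 4.16 CPM in DC3F9 and 0.487 (BD), 2.30 (OD) and 29.3 (PJ) in the lines. PJ was the highest library for all 4, by 434-fold, 48.04-fold, 48.4-fold and 7.04-fold against DC3F9. On its lower side *DEF6*, an exchange factor for Rac in lymphocytes, stood at 56.9 CPM (BD), 39.2 (OD) and 2.18 (PJ) against 31.5 in DC3F9, and *DLA-DRA*, *DLA-DQA1* and *HLA-DRB1*, given above, made up the rest.

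Other genes were shared by a pair of lines, with the third within 0.5 log2 CPM of DC3F9. This rule and its genes were chosen after values had been seen. OD and PJ lay above without BD in 223 genes (1.23%) and below in 101 (0.557%). BD and PJ lay above without OD in 121 (0.668%) and below in 113 (0.624%), and BD and OD above without PJ in 133 (0.734%) and below in 90 (0.497%). Beside *DLA-DMA*, *MAPK13*, a p38 kinase, was lower in OD and PJ only, at 26.2 CPM in DC3F9 and 21.03 (BD), 4.53 (OD) and 3.86 (PJ) in the lines. *A4GALT*, which makes the glycolipid Gb3, was lower in BD and PJ only, at 5.90 CPM (BD), 123 (OD) and 2.66 (PJ) against 103 in DC3F9. *IRGM* (by its human homolog), a GTPase of autophagy, was lower in the same pair, at 22.2 CPM in DC3F9 and 0.811 (BD), 21.7 (OD) and 2.04 (PJ) in the lines, as was *FGD2*, a Cdc42 exchange factor of antigen-presenting cells, at 5.23 CPM (BD), 12.2 (OD) and 2.51 (PJ) against 15.9 in DC3F9. *AGO2*, the slicer of RNA interference, was higher in BD and PJ, at 35.4 CPM in DC3F9 and 116 (BD), 46.2 (OD) and 104 (PJ) in the lines. *MEI1*, a meiosis gene, was lower in BD and OD, at 2.48 CPM (BD), 2.46 (OD) and 43.1 (PJ) against 44.7 in DC3F9, and *GALR1*, a galanin receptor, had 794 counts in DC3F9 and 0 (BD), 336 (OD) and 1202 (PJ) in the lines. Scaled, *GALR1* stood at 11.3 CPM in PJ against 12.4 in DC3F9.

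**Figure D5:**
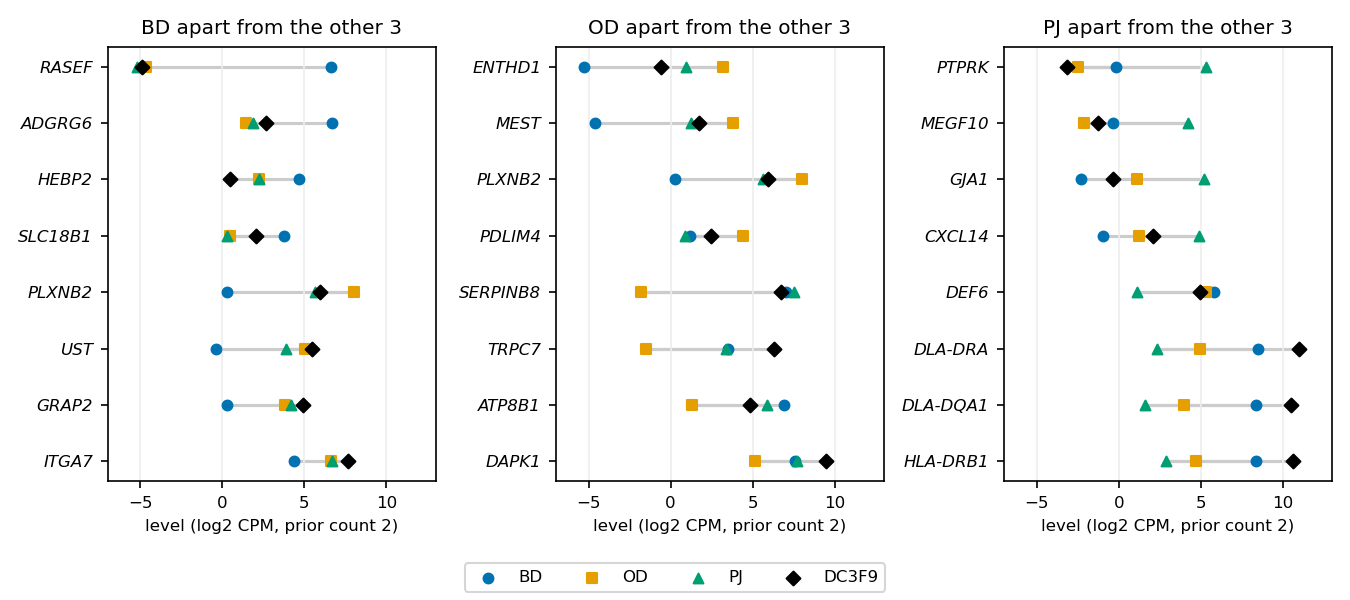
Levels in log2 CPM with a prior count of 2 for the 8 named genes that stood furthest apart in BD (left), OD (middle) and PJ (right), with 1 point per library. In each panel the upper 4 genes have the named line on the right of the other 3 libraries and the lower 4 have it on the left, as for *RASEF* in BD, *SERPINB8* in OD and *PTPRK* in PJ.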

How the data were processed

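One RNA library each of BD, OD, PJ and DC3F9 was used, grouped as HS cell line or dendritic cell strain by the labels. RNA was isolated with a mirVana kit. The methods name an mRNA kit for these libraries and the labels a total RNA kit with globin depletion, which was not settled here. Per the labels' processing notes and the methods, the authors trimmed reads with cutadapt 3.7, checked them with FastQC 0.11.9, aligned them to CanFam3.1 with STAR 2.7.10a and counted them with HTSeq 2.0.0. They deposited raw counts per gene, with no normalization and no filter. The annotation release and strand option are not given in the sources used here, so reads of overlapping or nearly identical genes may be mixed. The authors' fold changes, from DESeq2 1.20, were not used, and the table of tumor counts, made at another site, was not joined.

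From the counts, edgeR 4.0.16 (R 4.3.3, with limma 3.58.1) gave TMM factors, the filterByExpr filter and the quasi-likelihood test of 3 lines against 1 strain, with Benjamini-Hochberg adjustment. A call needed log2FC beyond 1.5 in size with adjusted p under 0.05. The SE beside an edgeR log2FC is the size of that log2FC over the square root of the test's F statistic. It restates the test and is not a separate estimate. The lone strain was assumed to vary like the lines, and since nothing states separate cultures the p-values measure the spread between the libraries of 3 lines. CPM differences per line, with a prior count of 2, carry no test. The filter keeps a gene with enough counts in any single library, so a gene counted in DC3F9 alone is lower in the lines by that choice. In the same way a gene counted in lines alone is higher in those lines by that choice. Alternatives were DESeq2 1.42.0, a robust fit, other scaling, filters, prior counts and cutoffs, and leaving out each line. Levels and lists were computed in Python 3.11.15 (pandas 2.3.3, numpy 2.4.6, scipy 1.17.1), figures drawn in matplotlib 3.10.9, and both tests run on simulated data. That run was required only to return edgeR fold changes that followed the simulated ones. Its recovered and false calls are not reported here, so it vouches for neither test with 3 lines against 1 strain. At these depths 3 counts, the floor used for genes at 0, are worth 0.0213 to 0.0467 CPM. Floors and the 95% intervals, which are exact, cover counting error only. The total counts are above the reads per sample that the methods state, and how the reads of a pair were counted is not described. If mates were counted singly, the counts are not independent and these intervals are too narrow. OD and PJ, the closest pair, differed by a chi-square of 614 averaged over genes, so no library was a copy of another.

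Names came from the readable part of the study's supplementary tables, which give a dog symbol for 1025 identifiers and only a human homolog for 92. The identifiers matched 0 entries of the RefSeq table at hand, and with no annotation of the files' build no coordinates or sequences are given. The comparison, gene lists and rules were chosen with earlier results of these data known. Genes named are, among named genes at 3 log2 CPM or more on the higher side, the 12 highest and 12 lowest in all 3 lines by the difference nearest 0, the 4 highest and 4 lowest standing apart in each line, up to 5 members per list by mean difference with others a list's account needed, and 2 unnamed identifiers each way. Values of some list members are not reported here.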

Additional observations from a re-analysis of the deposited data

Results flagged for a closer look

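In 467 genes (2.58%) a pair of lines lay past the cutoff of 1.5 log2 CPM on opposite sides of DC3F9, 221 of them at 3 log2 CPM or more in some library. With 1 library per line, none of these differences between lines was tested. *ATP8B1*, a phospholipid flippase, lay 2.06 log2 CPM above DC3F9 in BD and -3.53 from it in OD. *SLC18B1*, a polyamine transporter, lay 1.74 above in BD and differed by -1.74 in PJ.

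*PLXNB2*, a semaphorin receptor, lay 2.06 above in OD and differed by -5.69 in BD, with 36370 counts in OD and 153 in BD. *PDLIM4*, an actin-associated protein, lay 1.91 above in OD and differed by -1.61 in PJ. *MEST*, an imprinted gene, lay 2.10 above in OD and differed by -6.30 in BD, and *ENTHD1* lay 3.80 above in OD and differed by -4.66 in BD. BD had 3 counts of *MEST* and 1 of *ENTHD1*, so both differences on that side rest on values at or under the floor of 3 counts. *GJA1*, connexin 43, lay 5.55 above in PJ and differed by -1.97 in BD. *CXCL14*, a chemokine, lay 2.81 above in PJ and differed by -3.05 in BD.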

How the results depend on the processing

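The test of 3 lines against 1 strain gave 0 calls with edgeR under each scaling, cutoff, robust fit and left-out line and with the filter at 1 CPM, 28 with no filter on low counts and 1796 with DESeq2, and the cause was not tested. Unadjusted p under 0.05 was reached by 2110 to 3156 genes over the edgeR fits. The other fold cutoffs reuse the main edgeR fit, in which no adjusted p was under 0.05, so they could give no calls. Under the filter at 1 CPM, which tests fewer genes, 1091 genes lay above DC3F9 in all 3 lines, and 1948 in BD, 2152 in OD and 2078 in PJ. That filter left 0 MHC class II and 0 sterol and lipid members above, and 1 cytokine, 1 growth control, 1 T and NK cell and 2 matrix members below. Scaling by library size alone left 1 lysosomal, 1 growth control and 1 sterol and lipid member below in all lines and put 5 growth control members above. It also moved the mean difference of 10 of the 28 genes chosen by rank by more than the SD of the lines, and a prior count of 0.5 moved 2 unnamed ones. There were 0 reversals of direction under any alternative. These genes were chosen from the same values for their large differences, so that outcome was all but fixed in advance.

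With a line left out, agreement is asked of 2 lines, and the counts ran from 1955 to 2354 genes above and from 1757 to 1798 below. Of the members past the cutoff, growth control came to 6 above without OD, sterol and lipid to 2 above without PJ and endothelial to 1 above without BD. Below, 1 replication member appeared without OD, and 1 endothelial and 1 melanocyte or glial member without PJ. Over all counts and all alternatives, 307 recomputed values stayed within 1.5 times the reported count and 22 did not. No paired analysis was possible because each line and the strain is 1 library of a different dog, so no number is shared between the groups. Depth does not limit the abundant genes, but a single strain library limits every difference.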

Other observations

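Among named genes outside the lists, chosen after their values were seen, all 3 lines lay above DC3F9 for those that follow. *OSR2*, a zinc finger protein of limb and palate, had 437 counts (BD), 196 (OD) and 133 (PJ) against 1 in DC3F9. *ZFPM2*, a cofactor of GATA factors, stood at 0.249 CPM in DC3F9 and 13.9 (BD), 6.37 (OD) and 9.69 (PJ) in the lines, and *GDF11*, a secreted member of the TGF-beta family, at 1.99 CPM (BD), 13.7 (OD) and 13.8 (PJ) against 0.467 in DC3F9. *CYP27B1*, which makes active vitamin D, stood at 0.125 CPM in DC3F9 and 4.96 (BD), 5.07 (OD) and 1.44 (PJ) in the lines. *PSIP1*, a chromatin reader known as the integrase tether of HIV, stood at 150.2 CPM (BD), 182 (OD) and 153 (PJ) against 27.8 in DC3F9, with an SD between lines of 0.15 log2 CPM (n = 3). *MTSS1*, a scaffold that bends membranes, stood at 11.9 CPM in DC3F9 and 91.6 (BD), 203 (OD) and 167 (PJ) in the lines. *ULBP1* (by its human homolog), a ligand that stressed cells show to NK cells, stood at 25.9 CPM (BD), 22.2 (OD) and 12.97 (PJ) against 4.14 in DC3F9. In each of these DC3F9 was the lowest library.

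On the other side, *NDRG1*, a gene induced by hypoxia and differentiation, stood at 648 CPM in DC3F9 and 105 (BD), 26.2 (OD) and 20.7 (PJ) in the lines. *LEMD2*, a protein of the inner nuclear membrane, stood at 22.5 CPM (BD), 17.6 (OD) and 19.03 (PJ) against 109 in DC3F9, and *GRINA*, a calcium-regulating membrane protein, at 323 CPM in DC3F9 and 95.4 (BD), 68.5 (OD) and 90.3 (PJ) in the lines. The lines were close to each other for *LEMD2* (SD 0.18 log2 CPM) and spread for *NDRG1* (SD 1.27). *SLC35D2*, a nucleotide sugar transporter, had 7 counts (BD), 1 (OD) and 1 (PJ) against 452 in DC3F9, *SNCAIP*, a partner of synuclein, had 341 counts in DC3F9 and 0 (BD), 1 (OD) and 7 (PJ) in the lines, and *TSPAN8*, a tetraspanin, had 1 count (BD), 7 (OD) and 0 (PJ) against 325 in DC3F9. These 3 genes were close to absent in the lines. *AKR1B1*, the aldose reductase, stood at 204 CPM in DC3F9 and 19.4 (BD), 71.2 (OD) and 71.4 (PJ) in the lines and was just past the cutoff in OD and PJ (-1.52 and -1.51 log2 CPM). With edgeR the adjusted p of these 14 genes was at least 0.0992.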
